A study of Rattus norvegicus with 6 samples.

Results

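The 4 genes Pld1, Pdcd10, Cdh2 and Dlg4, of the machinery that carries vesicles to the plasma membrane, joins neighbouring cells and holds signalling proteins together, were followed in islets from the head and the tail of the rat pancreas. They were chosen by name. Each is read by 1 probe of the array maker's catalogue, found through the RefSeq accession that the scanner files give for it (NM_030992 for Pld1, NM_001009542 for Pdcd10, NM_031333 for Cdh2 and NM_019621 for Dlg4). They are 4 of the 30 catalogue genes that could be named, among 38804 probes other than controls. The islets, the small organs of hormone-secreting cells within the pancreas, came from male rats and were collected apart from the head, which lies along the duodenum, and from the tail, which lies at the spleen. Each region has 3 single-colour arrays, numbered 1 to 3. Neither strain, age nor any treatment other than the isolation is given in the sources used here, and the sample titles begin with 24W without saying what it stands for. The study's title asks how islets differ from one another, and the comparison here is head against tail.

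Phospholipase D1, the product of Pld1, cuts phosphatidylcholine into choline and phosphatidic acid, a lipid that helps secretory granules fuse with the plasma membrane, and it is known for a part in insulin secretion. Pdcd10 encodes CCM3, a small adaptor that binds the kinases Stk24, Stk25 and Stk26, sits in the STRIPAK phosphatase complex and acts with Krit1 and Ccm2 in vessel walls. Cdh2 encodes N-cadherin, a calcium-dependent adhesion protein of neural and islet endocrine cells whose inner end is tied to actin through catenins. Dlg4 encodes PSD-95, a scaffold with PDZ domains that gathers receptors and channels beneath the membrane, best known from excitatory synapses.

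The sequences of the probes were not used here. RefSeq start regions (build GRCr8) were found for 3 of the 4 genes, with 1 transcript start taken for each. The 250 bases before each such start are shown because they differ in composition and hold different short motifs. They need not lie upstream of the whole gene. The Pld1 gene begins at base 112777820 and the Dlg4 gene at 55239397, so both windows lie inside their genes. The Pdcd10 window overlaps its gene in part. They are written 5′ to 3′ on the strand of the gene, and capitals mark matches on either strand to 1 of 6 motifs.

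Pld1, chr2:112821926-112822175, plus strand: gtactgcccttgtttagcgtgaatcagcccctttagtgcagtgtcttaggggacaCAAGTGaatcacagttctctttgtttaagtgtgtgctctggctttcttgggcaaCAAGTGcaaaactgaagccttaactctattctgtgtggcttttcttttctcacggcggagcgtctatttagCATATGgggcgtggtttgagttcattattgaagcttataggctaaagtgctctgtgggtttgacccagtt

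Pdcd10, chr2:162644613-162644862, minus strand: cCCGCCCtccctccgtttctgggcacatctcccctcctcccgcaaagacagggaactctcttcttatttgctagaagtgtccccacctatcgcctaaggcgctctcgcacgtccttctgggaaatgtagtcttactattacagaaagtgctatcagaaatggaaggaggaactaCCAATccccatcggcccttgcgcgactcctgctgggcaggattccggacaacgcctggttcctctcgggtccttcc

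Dlg4, chr10:55239534-55239783, plus strand: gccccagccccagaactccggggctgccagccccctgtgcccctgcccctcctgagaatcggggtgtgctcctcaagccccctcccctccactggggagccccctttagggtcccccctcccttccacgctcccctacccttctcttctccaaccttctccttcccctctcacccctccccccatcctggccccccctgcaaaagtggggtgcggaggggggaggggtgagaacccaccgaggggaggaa

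The capitals in the Pld1 window are 3 E-boxes (CANNTG), a motif present in 65.5% of all 33469 windows of this length. The Pdcd10 window holds 1 GC box (GGGCGG, here read on the opposite strand, in 30.5% of all windows) and 1 CCAAT box (the letters CCAAT, in 34.0%). The Dlg4 window matched none of the 6, and the other motifs searched were the CRE core TGACG (18.2% of windows), the TATA box TATAAA (12.9%) and the homeodomain core TAATTA (4.86%), with 0 matches in all 3 windows. The GC content was 69.2% for Dlg4, 56.0% for Pdcd10 and 45.2% for Pld1, against a median of 51.2%. Pdcd10 had 13 CpG dinucleotides, more than 70.6% of windows, while Pld1 and Dlg4 had 5 each, the median of all windows. These matches describe letters only.

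The 75th percentile of probe signal, to which each array was scaled, was 264, 114 and 117 on the tail arrays 1, 2 and 3 and 203, 207 and 259 on the head arrays. No spot was saturated, and 78.2% to 86.4% of probes were well above background. All 60 spots of each of the 4 probes (10 on each array) were well above background. The file headers give an identifier of the scan, which was taken here to mark the slide. By it the 3 tail arrays shared a slide, head replicate 1 lay on a further slide and head replicates 2 and 3 on the last. Slide in this sense and region cannot be told apart. Whether the replicates were separate animals is not said in the labels, and the p-values speak only of the spread among these 6 arrays, which may be technical. In whole islets, fewer cells of a type and less RNA per cell cannot be told apart. None of the 46 marker genes listed for 10 pancreatic cell types could be named on this array, so the labelled tissue was not checked against its markers. Of 82 genes in 4 lists of partners (exocytosis, CCM3 and STRIPAK, cadherin and catenin adhesion, DLG scaffolds), 4 could be named, and these are the 4 genes described.

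Spot signals set the precision within an array. The SD over the spots of a probe, on the log2 scale, ran from 0.061 to 0.17 for Pld1, 0.056 to 0.14 for Pdcd10, 0.053 to 0.13 for Cdh2 and 0.062 to 0.20 for Dlg4. The SD of the scaled levels over the 6 arrays was 0.74, 0.62, 1.03 and 0.52 in the same order. Spots share the labelling and hybridisation of their array, so their SD covers only part of the technical error. The Dlg4 probe was the dimmest, with a mean signal of 9.72 scanner units on tail replicate 3 and 51.1 on tail replicate 1. The Cdh2 probe gave 14.0 and 178 on the same arrays, Pdcd10 gave 144 and 725, and Pld1 gave 156 and 142. Tail replicate 1 was thus much brighter than tail replicate 3 for the other 3 probes and not for Pld1. These signals are unscaled, and the 75th percentile itself was 264 on tail replicate 1 and 117 on tail replicate 3. After scaling, tail replicate 1 still stood higher for the other 3 probes, and Pld1 was lower there (-0.89 against 0.42).

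**Figure D1:**
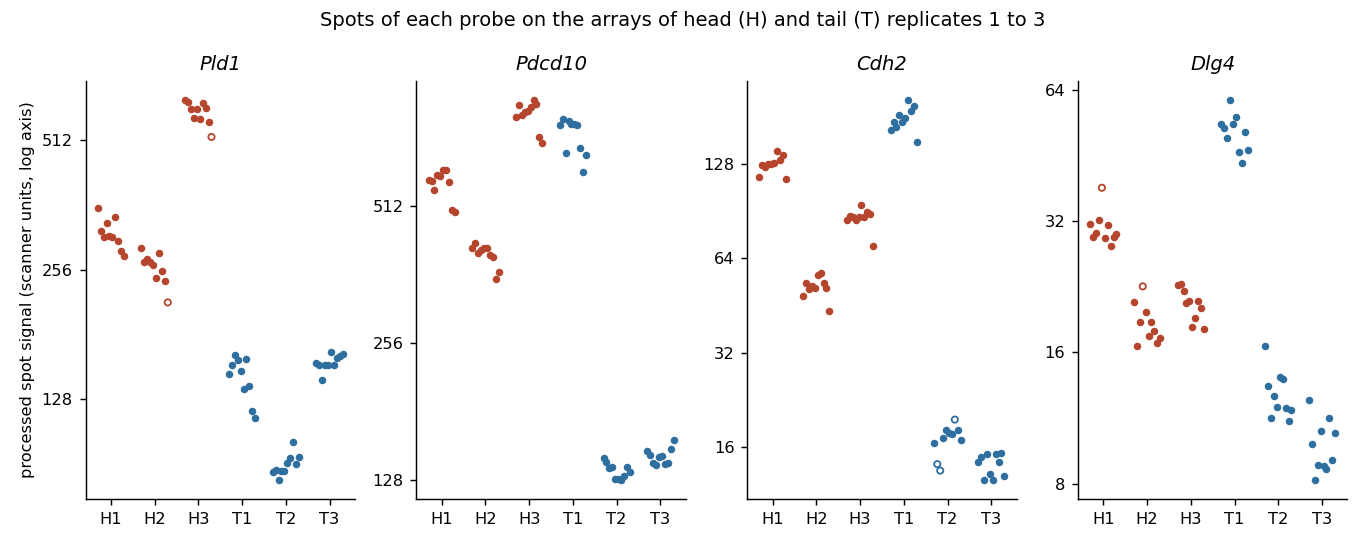
Processed signal of single spots (vertical axis, scanner units, log scale) for the probe of each gene on the 3 head (H) and 3 tail (T) arrays, before scaling; open circles are spots left out as outliers. Spots of an array lie close together, and Cdh2 runs from about 14.0 units on T3 to 178 on T1.

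Pld1, the phospholipase, had the largest head and tail difference of the 4 under the main scaling. Cdh2 exceeded it after quantile normalization (0.93 against 0.91), in the authors' deposited value table (0.97 against 0.91) and, with Pdcd10, without tail replicate 1 (1.46 and 1.09 against 0.70). The level of Pld1 (log2 of its signal over the 75th percentile of the array) was 0.61, 0.35 and 1.22 in head replicates 1, 2 and 3 and -0.89, -0.35 and 0.42 in tail replicates 1, 2 and 3. Head replicate 2 lay just under tail replicate 3, so the regions overlapped, but the head array was the higher in each same-numbered pair, by 1.5, 0.70 and 0.80. The head level was 2.0-fold the tail level (95% interval 1.03 to 3.91, limma, log2 difference 1.00, SE 0.42), which did not pass the test over all probes (limma adjusted p = 0.253). With the replicate number as a block the SE was 0.27 and the adjusted p 0.0767. The probe was brighter than 67.0% to 82.9% of probes on its array, a rank that describes the probe and not the amount of transcript.

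Pdcd10, the CCM3 adaptor, stood at 1.49, 0.95 and 1.64 in head replicates 1, 2 and 3 and at 1.46, 0.23 and 0.31 in tail replicates 1, 2 and 3. Tail replicate 1 reached the head arrays, while the other tail arrays lay below all of them. Head islets averaged 1.36 ± 0.37 and tail islets 0.67 ± 0.69 (SD, n = 3 arrays per region), a head level 1.62-fold the tail level (95% interval 0.824 to 3.18, log2 difference 0.69, SE 0.42, limma adjusted p = 0.355). In pair 1 the head array exceeded the tail array by 0.032 log2 units, less than the spot SD on either array, and in pairs 2 and 3 by 0.72 and 1.33. After quantile normalization pair 1 turned to -0.031, so that the count of 3 pairs higher in the head became 2. Without tail replicate 1, and with head replicate 1 kept, the difference was 1.09 (limma adjusted p = 0.0602).

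Cdh2, N-cadherin, varied most over the arrays. Its level was -0.67, -2.0 and -1.59 in head replicates 1, 2 and 3 and -0.57, -2.71 and -3.06 in tail replicates 1, 2 and 3. Tail replicate 1 was the highest of all 6 arrays and the other tail arrays were the lowest, so tail islets alone spanned a 5.61-fold range. Over the 6 arrays its SD was 1.03, above that of 93.5% of tested probes. The region means were -1.42 ± 0.68 and -2.11 ± 1.35 (SD, n = 3 each), a head level 1.62-fold the tail level with a 95% interval from 0.566 to 4.62 (log2 difference 0.69, SE 0.66, limma adjusted p = 0.522). The pairs differed by -0.10, 0.71 and 1.46. With the replicate number as a block the SE was 0.31, with an adjusted p of 0.159. The difference changed with the array left out: it was 1.46 without tail replicate 1 (limma adjusted p = 0.0584). It was 0.39, 0.22 and 0.32 without tail replicate 2, tail replicate 3 or head replicate 1. Each of these fits kept the other array of the pair, so the pairing was broken in them.

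Dlg4, the scaffold PSD-95, was the only 1 of the 4 with a lower mean in head islets. It stood at -2.75, -3.51 and -3.65 in head replicates 1, 2 and 3 and at -2.37, -3.16 and -3.58 in tail replicates 1, 2 and 3. Replicate 1 was the highest in both regions, the regions overlapped, and the spread within each region was larger than the gap between their means. The difference was -0.27 (SE 0.39, limma adjusted p = 0.677), a head level 0.832-fold the tail level (95% interval 0.447 to 1.55). The head array was lower by 0.38, 0.35 and 0.069 in pairs 1, 2 and 3. This direction changed with the scaling: the difference was 0.088 after quantile normalization and 0.12 in the authors' deposited value table. Without tail replicate 1 the difference was 0.069, in a fit that kept head replicate 1, the highest head array. Under the main scaling the head array was still lower in pairs 2 and 3, by 0.35 and 0.069. After quantile normalization pairs 1, 2 and 3 differed by -0.24, 0.078 and 0.42, so the head array was the higher in 2 of the 3.

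**Figure D2:**
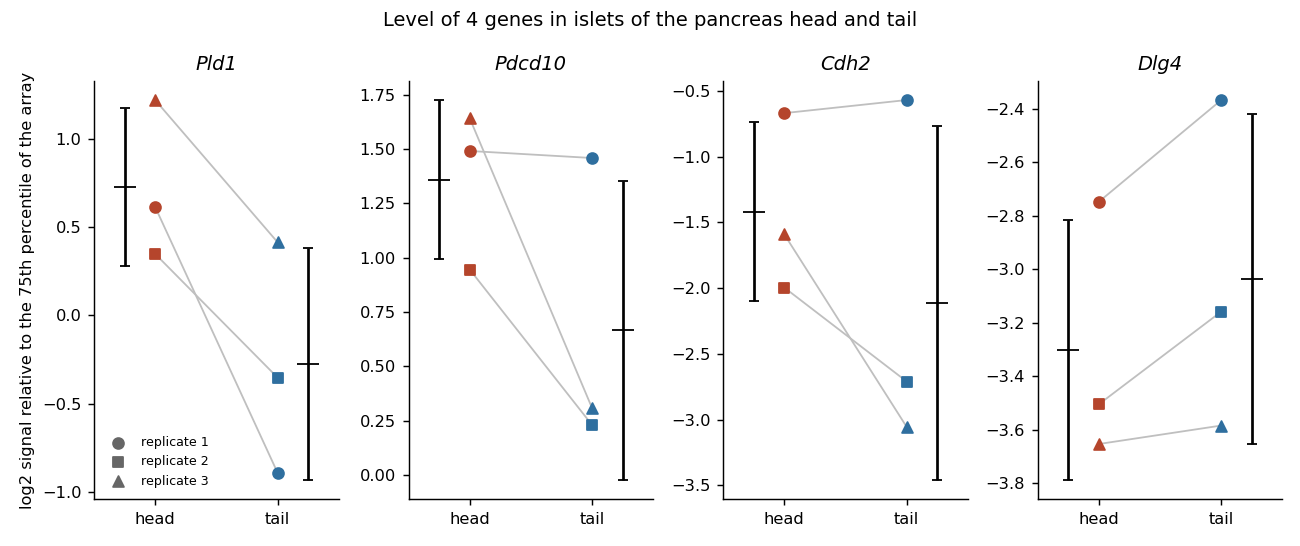
Level of each gene (log2 of signal over the array's 75th percentile, a separate scale for each gene) in head and tail islets; symbols give the replicate number, grey lines join same-numbered arrays, and black bars show mean ± SD (n = 3). Pld1 is higher in the head in all 3 pairs, and tail replicate 1 stands above the other tail arrays for Pdcd10, Cdh2 and Dlg4.

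Read against the whole array, 0 of the 4 genes had a limma adjusted p under 0.05, and 0 of 32182 tested probes did (0%). At an unadjusted p under 0.05, 1 of the 4 (Pld1) and 6168 probes (19.2%) differed. With the replicate number as a block it was again Pld1 alone, against 33.8% of probes, 1 of which passed the adjusted threshold (ASRN6AP1B100026125V3, looked up after its value was seen). The arrays of the regions failed to overlap for 0 of the 4 genes and for 24.9% of probes. Under the main scaling the head array was higher in all 3 pairs for Pld1 and Pdcd10, a pattern shared by 17.6% of probes. It was lower in all 3 for Dlg4, as for 38.1% of probes. The pair counts of Pdcd10 and Dlg4 changed after quantile normalization. The smallest exact permutation p that 3 arrays against 3 allow is 0.1, and the two-sided values were 0.2 for Pld1, 0.2 for Pdcd10, 0.5 for Cdh2 and 0.6 for Dlg4.

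The median difference over all tested probes was -0.23, and over the 4 genes it was 0.69. Relative to that median, Pld1 differed by 1.23, Pdcd10 and Cdh2 by 0.92 each and Dlg4 by -0.039. The Pld1 difference lay above that of 96.3% of tested probes, those of Pdcd10 and Cdh2 above 89.4%, and that of Dlg4 above 47.7%, near the middle of the array.

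**Figure D3:**
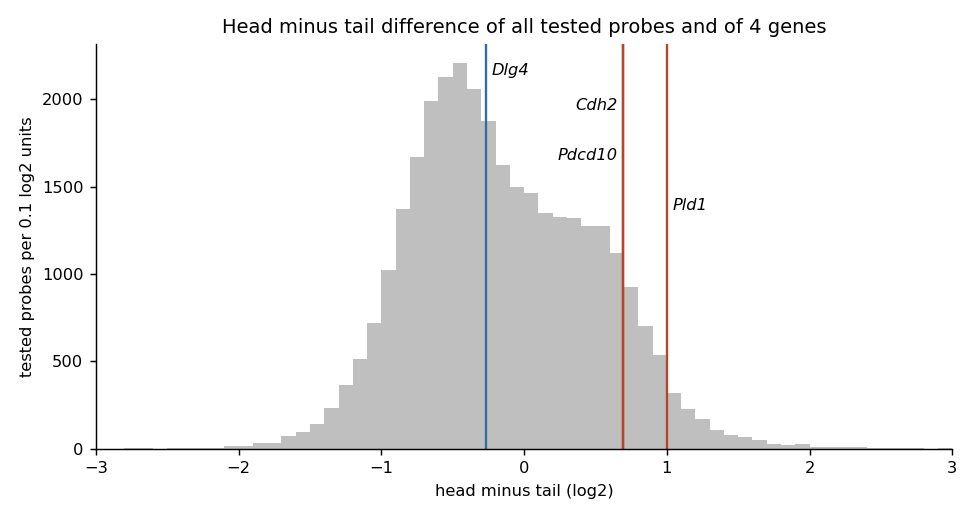
Head minus tail difference (horizontal axis, log2, shown from -3 to 3) of the 32182 tested probes, as the number of probes per bin of 0.1, with vertical lines at the 4 genes. Dlg4 (-0.27) lies in the middle of the distribution, and Pdcd10 and Cdh2 (both 0.69) and Pld1 (1.00) on its right side.

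The spread of each gene over the arrays divided differently between region and replicate number. For Pld1, 54.5% of the sum of squares lay between regions and 38.6% between numbers. For Pdcd10 the shares were 37.3% and 40.8%, for Cdh2 13.7% and 74.7%, and for Dlg4 7.88% and 89.9%. The medians over all probes were 32.3% and 45.0%. By these shares Dlg4 and Cdh2 varied mostly with the number of the replicate, and Pld1 mostly with the region. The replicate number has more levels than the region, so its share tends to be the larger in any case. Head replicate 1 also had a slide of its own, so within the head number and slide cannot be fully told apart.

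The 6 arrays were not taken as independent, because same-numbered head and tail arrays may share an animal. Over them, Pdcd10 and Cdh2 had the highest correlation of the 6 pairs (Pearson r 0.89, Spearman rho 0.71). It was 0.89 without tail replicate 1 and 0.55 without the 2 arrays farthest from the median of Pdcd10. That removal narrows the range of Pdcd10, which can by itself lower r. The same removal, by the median of Pld1, gave 0.71 for Pld1 and Pdcd10. Cdh2 and Dlg4 followed with r 0.73 (rho 0.60), which became 0.93 when each region's mean was taken off, above the 0.90 of Pdcd10 and Cdh2. Without tail replicate 1, the highest array for both genes, it was 0.55, and without the 2 farthest arrays 0.44. Pdcd10 and Dlg4 gave 0.35, and Pld1 gave 0.27 with Pdcd10, -0.12 with Cdh2 and -0.69 with Dlg4. Tail replicate 1 was the lowest array for Pld1 and the highest for Cdh2 and Dlg4. Without that array r of Pld1 with Pdcd10 was 0.83, with Cdh2 0.54 and with Dlg4 -0.31. With each region's mean taken off and all 6 arrays kept, it was -0.34, -0.63 and -0.75 in the same order. So the sign of r for Pld1 and Pdcd10 depended on the measure. Pdcd10 and Dlg4 gave 0.68 with the region means off. For Pdcd10 and Cdh2 the lowest arrays were tail replicates 2 and 3, which also had the lowest 75th percentiles of signal (114 and 117), and the part of array brightness in this likeness was not tested.

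Among the 26 other catalogue genes that could be named and tested, the 3 with the highest r over the 6 arrays were taken as most like each gene. The median r over these 26 genes was 0.21 for Pld1, 0.73 for Pdcd10, 0.66 for Cdh2 and 0.24 for Dlg4, so a high r was common among them for Pdcd10 and Cdh2. For Pld1 the closest were Ldha, lactate dehydrogenase A (r 0.997), the nucleoside transporter Slc28a2 (0.90) and the translation initiation factor Eif4b (0.90). The r of Pld1 with Eif4b was 0.79 after quantile normalization. Ldha ranked the 6 arrays in the same order as Pld1 (rho 1.0), from -0.96 in tail replicate 1 to 0.68 in head replicate 3. Across all other probes with a value on each array, 1.75% had an r above 0.9 with Pld1.

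For Pdcd10 the closest were the uncharacterised transcript LOC108352165 (r 0.98, rho 0.71), Magoh, whose product marks spliced exon junctions (0.97), and the nuclear export factor Cse1l (0.97, rho 0.83). The LOC108352165 probe was dim, at -4.85 in tail replicate 3 and -3.15 in tail replicate 1. Magoh ranked the arrays as Pdcd10 did (rho 1.0), and 11.8% of probes had an r above 0.9 with Pdcd10. For Cdh2 they were Ndfip1, an adaptor of Nedd4-family ubiquitin ligases (0.98), LOC108352165 (0.96) and the pyruvate dehydrogenase kinase Pdk3 (0.95), against 8.91% of probes above 0.9. The r of Cdh2 with Ndfip1 was 0.80 after quantile normalization.

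For Dlg4 the most alike were Map2, a microtubule-associated protein of neuronal dendrites (r 0.94), Ptk2b, a calcium-responsive tyrosine kinase (0.92), and Pdk3 (0.83). Map2 stood at -2.16, -2.93 and -2.93 in head replicates 1, 2 and 3 and -1.59, -2.69 and -3.53 in tail replicates 1, 2 and 3. As with Dlg4, its highest array was tail replicate 1, followed by head replicate 1. An r above 0.9 with Dlg4 was found for 2.72% of probes. These likenesses are descriptions over 6 arrays that share processing and, by pairs, a replicate number.

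**Figure D4:**
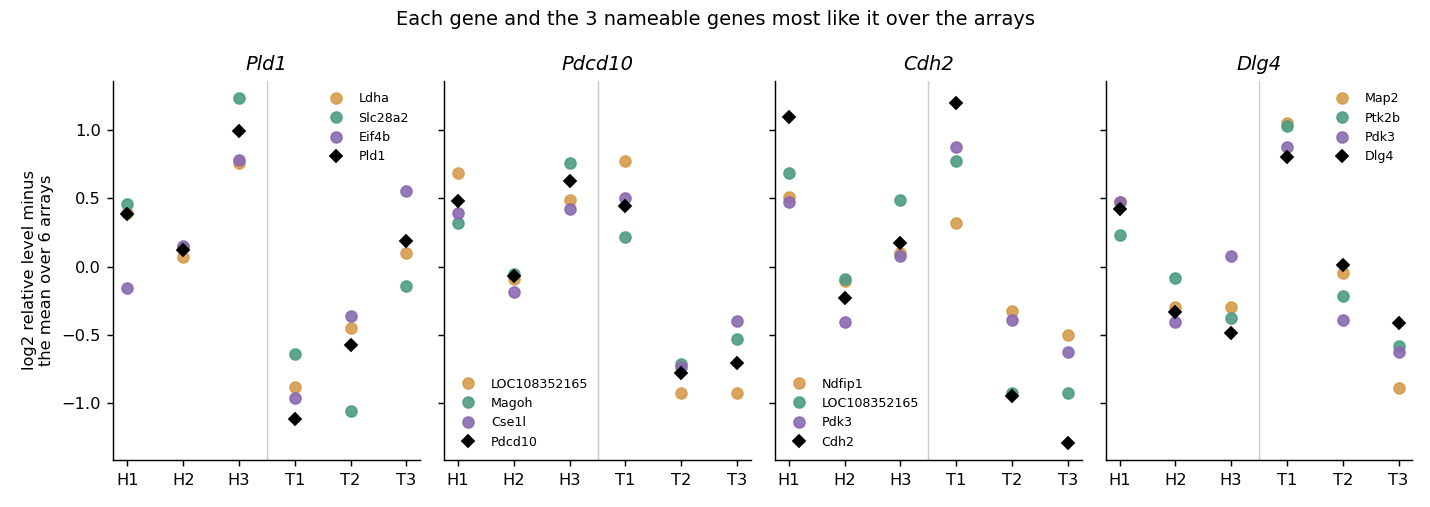
Level of each gene (black diamonds) and of the 3 nameable genes most like it (coloured circles) on the 3 head (H) and 3 tail (T) arrays, as log2 relative level minus the gene's mean over the 6 arrays. Pld1 and Ldha order the arrays alike, and Dlg4 and Map2 are both highest on T1 and next on H1.

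The direction of 3 of the 4 genes did not depend on the setting. The head mean of Pld1 was the higher under 17 of 17 alternatives, with differences from 0.70 to 1.35, and the same held for Pdcd10 (0.48 to 1.09) and Cdh2 (0.22 to 1.46). Dlg4 had a negative difference in 12 of 17 (-0.54 to 0.12), counting median centring, where it was -0.0049 and so near 0. Some alternatives could not change the difference of these genes and so add nothing to the counts of direction. A looser or stricter filter on dim probes and the replicate block repeat the main value. The block added to quantile normalization repeats the quantile value. Adjusted p-values in the limma fits ran from 0.0423 to 0.706 for Pld1, 0.0602 to 0.783 for Pdcd10, 0.0584 to 0.890 for Cdh2 and 0.366 to 0.995 for Dlg4. The value of 0.0423, with slide as a random block, came from a fit that called 6086 probes although no slide held both regions, and it is not read as corrected for slide.

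**Figure D5:**
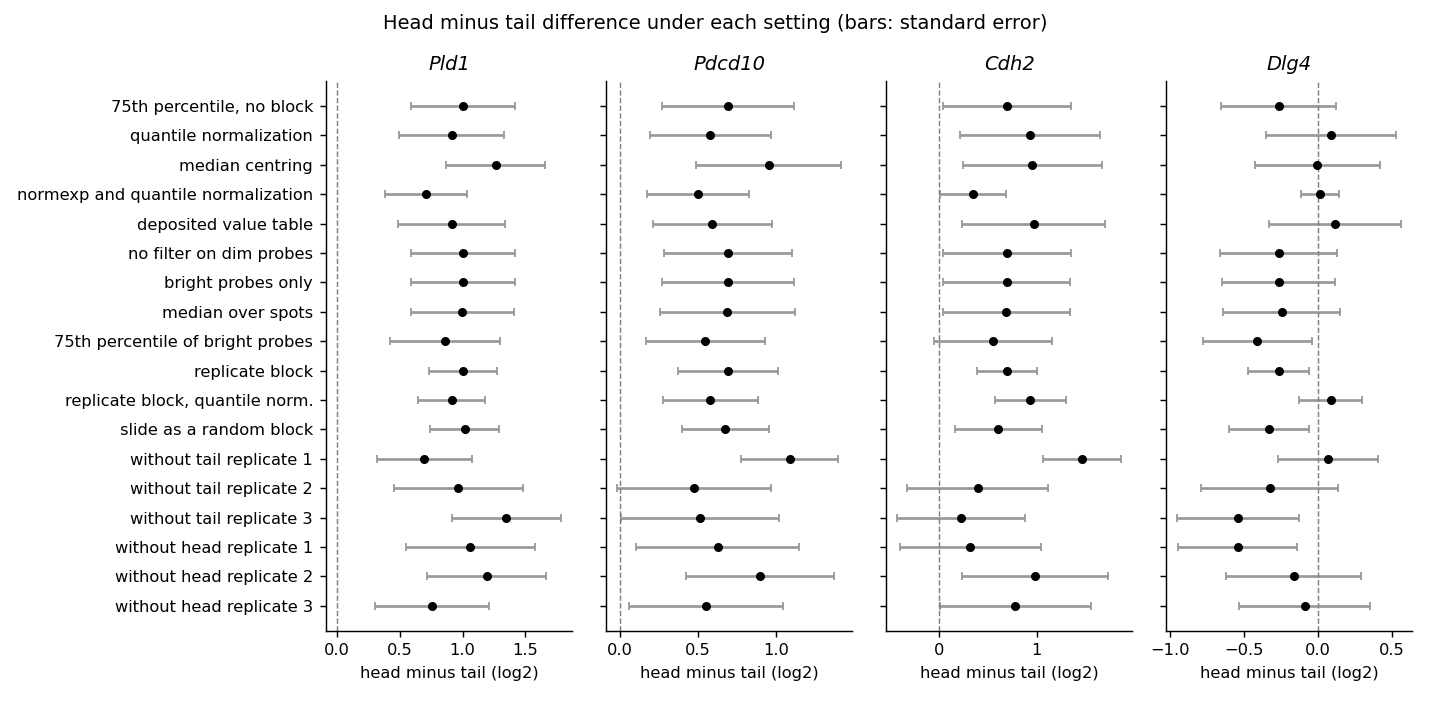
Head minus tail difference (horizontal axis, log2, a separate scale for each gene) with its standard error under the main setting (top) and 17 alternatives. Pld1, Pdcd10 and Cdh2 have values right of 0 in each, and those of Dlg4 lie on both sides.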

How the data were processed

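Each array's deposited file lists a processed, background-subtracted intensity per spot, written by version 11.0.1.1 of Agilent's Feature Extraction (per the file headers). Per the labels' protocols, ribosomal and transfer RNA were removed first, and random primers then gave labelled cRNA along whole transcripts. The authors' deposited value table holds log2 values, with a median of 5.04 in each of its 6 columns; how they were background-corrected and normalized is unknown. Each column correlated best with its own array (r 0.979 to 0.985).

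Control spots and outlier spots (130 to 177 per array) were left out, spots of a probe averaged on log2, and the array's 75th percentile subtracted. A probe was tested if well above background (most of its spots) on at least 3 arrays with at least 2 values per region. Head minus tail was fitted across all probes with limma 3.58.1 (R 4.3.3, variance trend, Benjamini-Hochberg, two-sided, threshold 0.05). The fit was also run on simulated data with a smaller spread than these arrays and no slide effect. That run checks the code and cannot show how the fit behaves on these arrays. Gene symbols came from RefSeq (GRCr8) through accessions without versions. For normexp (offset 50) the median spot signal was used in place of the mean signal that had been planned.

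Deviations from the region means had an r over probes of 0.51, 0.75 and 0.29 for same-numbered arrays. Differently numbered arrays gave -0.61 to 0.22, with 0.22 for head replicate 2 and tail replicate 3 and 0.19 for head replicate 3 and tail replicate 1. Deviations within a region cancel out, so the r of an array with the arrays of the other region cannot all share a sign. The protocol cuts each pancreas into head and tail, so the numbers were taken to pair the arrays, which these r do not establish. The members, lists and alternatives were chosen with earlier results of these data known. The rule for named genes was the 4 members and, for each, the 3 nameable catalogue genes of highest r over the arrays. Alternatives covered scaling, background, filter, spot summary, block, slide and leaving out each array alone, with the other array of its pair kept.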

Additional observations from a re-analysis of the deposited data

How the results depend on the processing

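Pld1, Pdcd10 and Cdh2 kept their direction under every alternative run, though the filters and the replicate block could not change it. Leaving out 1 array at a time gave log2 differences of 0.70 to 1.35 for Pld1, 0.48 to 1.09 for Pdcd10, 0.22 to 1.46 for Cdh2 and -0.54 to 0.069 for Dlg4, whose highest value was without tail replicate 1. Dlg4 also reversed after quantile normalization (0.088, the same value with the replicate block added, an alternative chosen after seeing the data), after normexp background correction together with quantile normalization (0.015) and in the authors' deposited value table (0.12), and the cause was not tested. Normexp together with quantile normalization gave 0.35 for Cdh2. The offset of 50 in that setting lies near or above the Dlg4 signals (array means 9.72 to 51.1 units). Such an offset narrows log2 differences of dim probes, so the sizes for Dlg4 and Cdh2 are not comparable with those of the other settings. With slide as a random block the difference of Pld1 was 1.02 (limma adjusted p = 0.0423).

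Over all probes in limma, 0 passed the adjusted threshold, against 2 in the deposited value table, 1 with the replicate block, 1 with the block and quantile normalization, 6086 with slide as a random block and 0 to 3 leaving out 1 array. An unadjusted p under 0.05 held for 6168, against 3777 after quantile normalization, 3757 with normexp and quantile normalization together, 3734 in the deposited table, 10875 with the replicate block, 13406 with slide and 2239 to 13698 leaving out 1 array (tail replicates 2 and 1). The block changed no call among the 4 genes.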

Other observations

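Spots of the 4 probes printed beyond row 400 of 532 were often dimmer than the other spots of the same probe. Over all catalogue probes the gap was -0.16 log2 units on tail replicate 1, -0.089, -0.088 and -0.10 on head replicates 1, 2 and 3, and -0.028 and -0.0049 on tail replicates 2 and 3. For Pld1 it was -0.29 on tail replicate 1 and 0.12 on tail replicate 2, and for Pdcd10 -0.23 and -0.010.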
